A study of Mus musculus with 12 samples.

Results

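Replication-dependent histone genes were followed in total RNA of mouse colonic epithelium with and without an intestinal deletion of Ehf, which encodes a transcription factor made in epithelia. The genes were chosen by name, as the clustered Hist1h, Hist2h, Hist3h and Hist4h genes with a mean of at least 5 counts over the 12 libraries. Of 55304 gene symbols counted, 70 had such a name and 52 passed the minimum. These 52 hold 6 of 6 H1 genes, 10 of 20 H2A genes, 14 of 19 H2B genes, 10 of 12 H3 genes and 12 of 13 H4 genes. The annotation calls 2 of the 52, Hist1h2al (H2A) and Hist3h2bb-ps (H2B), processed pseudogenes. Of the other 18 symbols, 10 had no count in any library and 8 were counted below the minimum. Hist1h2af (5.67 counts), Hist1h1t (5.58), Hist3h2bb-ps (5.58) and Hist1h2bp (5.42) lay just inside the minimum of 5. Hist1h4m (3.83 counts), Hist1h2ah (3.17), Hist3h2ba (2.92) and Hist1h2ad (2.83) lay just outside it.

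The EHF IKO mice were labelled as intestinal Ehf knockouts, carried the source prefix EVCER and received tamoxifen. The Control-TMX mice were wild type for Ehf, carried VilCreER (a Cre recombinase driven by the Villin promoter of the intestinal epithelium and switched on by tamoxifen) and received tamoxifen too. The Control-OIL mice had the EVCER prefix, received sunflower oil in place of tamoxifen and were labelled wild type. Each group had 4 C57BL/6 mice of 6 weeks, 1 library a mouse, and epithelium was released from the colon with EDTA. EHF IKO and Control-OIL therefore differ by tamoxifen as well as by the deletion, and EHF IKO and Control-TMX differ by mouse line as well as by Ehf.

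Histones package DNA into nucleosomes: H2A, H2B, H3 and H4 form the core around which DNA is wound, and H1 sits on the linker between cores. The replication-dependent genes are transcribed in S phase, when new DNA needs new nucleosomes, and most of their mRNAs end not in a poly(A) tail but in a conserved stem-loop that the stem-loop binding protein Slbp holds. In the colon, cells in S phase lie in the lower part of the crypts, and the differentiated cells above them have left the cell cycle. Some histone genes, Hist1h1c and Hist1h2bc among them, also give polyadenylated transcripts in cells that no longer divide.

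The stem-loop is what sets these transcripts apart from other mRNAs, so the forms it takes in the genes described below are given first, 5′ to 3′, from the GENCODE M21 transcript models of GRCm38. Capitals mark the 16-base stem-loop, searched on the transcript strand as a left arm of GGNNCT, a loop of 4 bases with TT in its middle and a right arm of AGNNCC.
Hist1h1c (H1): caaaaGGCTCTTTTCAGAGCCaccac
Hist1h3b (H3): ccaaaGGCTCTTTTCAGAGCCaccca
Hist1h2bb (H2B): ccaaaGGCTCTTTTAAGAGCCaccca
Hist2h2ac (H2A): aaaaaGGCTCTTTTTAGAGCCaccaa
Hist1h4h (H4): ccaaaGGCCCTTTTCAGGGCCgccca
Hist1h4j (H4): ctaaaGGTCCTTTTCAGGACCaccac
The motif was found in 44 of the 70 histone genes (62.9%) and in 149 of 55271 other genes (0.27%). The H1, H2A, H2B and H3 genes with a match shared the stem arms GGCTCT and AGAGCC. None of the 11 matching H4 genes had these arms: 9 had GGCCCT and AGGGCC, and Hist1h4b and Hist1h4j had GGTCCT and AGGACC. Transcript models differed in where they end. Those of Hist1h3b, Hist1h4h and Hist1h2bb stop 51, 46 and 23 bases after the stem-loop, and that of Hist1h1c runs on for 840 bases. Models of 26 genes, Hist1h1a, Hist1h1b and Hist1h2bc among them, held no match, which says only that these letters are not in the model.

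Promoter sequence in the RefSeq table of GRCm38.p6, 250 bases before to 50 bases after each start, was matched for 62 of the 70 genes. The stretches just upstream of 2 H1 genes and an H4 gene with high levels show how the motifs lie before the start. Capitals mark the H1 box AAACACA, the CCAAT box and the TATA box searched as TATAAA, each on either strand and with no overlap in these stretches.
Hist1h1c, chr13:23738677-23738806, plus strand: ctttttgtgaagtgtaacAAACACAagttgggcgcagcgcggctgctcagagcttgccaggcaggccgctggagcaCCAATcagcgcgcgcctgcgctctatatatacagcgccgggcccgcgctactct
Hist1h1e, chr13:23622559-23622688, minus strand: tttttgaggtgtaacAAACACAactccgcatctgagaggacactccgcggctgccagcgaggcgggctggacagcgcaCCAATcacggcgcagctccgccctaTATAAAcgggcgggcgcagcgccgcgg
Hist1h4d, chr13:23581438-23581567, plus strand: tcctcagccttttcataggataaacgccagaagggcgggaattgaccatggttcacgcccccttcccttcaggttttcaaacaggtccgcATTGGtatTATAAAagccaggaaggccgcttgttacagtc
The H1 box was in the promoters of 5 of 6 H1 genes, against 8.22% of the 27025 genes with a promoter in the table. CCAAT was in all 50 promoters of H1, H2A, H2B and H3 genes and in 3 of 12 H4 promoters, that of Hist1h4d among them, against 41.1% of the table. ATTTGCAT was in 7 of 18 H2A and 7 of 16 H2B promoters and in none of the other histone classes, against 1.97% of the table. Some H2A and H2B genes lie head to head with overlapping windows, as Hist1h2ah and Hist1h2bk do, so the same site can count for both. TATAAA was in 35 of 62 histone promoters, against 15.7% of the table. These matches describe the letters and are not sites of binding.

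Libraries held 7421411 to 10344161 counts assigned to genes. Histone genes took the lowest share in Control-TMX 1, at 0.0556% of counts (95% Wilson interval 0.054 to 0.0573%), and the highest in Control-TMX 4, at 0.156% (0.154 to 0.159%); these intervals cover counting error only. Values per library are CPM (counts scaled to a common library size, with sizes adjusted by TMM factors). Ehf itself averaged 339 ± 27.2 CPM in EHF IKO, 344 ± 21.6 in Control-TMX and 428 ± 47.6 in Control-OIL (SD, n = 4 each). Its log2 fold change was -0.33 ± 0.11 (SE) for EHF IKO over Control-OIL (edgeR adjusted p = 0.159) and -0.02 ± 0.11 over Control-TMX (adjusted p = 0.969). Counts over all exons of Ehf do not measure the deleted part, so this does not check the labels. EHF IKO 2 stood apart, with 10.4% of its counts in 11 satellite-like Gm rows that took at most 0.114% elsewhere. Xist and the Y-linked genes Ddx3y, Uty, Kdm5d and Eif2s3y read replicates 1 and 2 as female and 3 and 4 as male in every group, 6 mice of each sex. The labels give no sex, so that sex cannot be told apart from anything else the numbers may carry.

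Counting left out reads that mapped to several places or overlapped several genes, and histone genes resemble each other, so a low value can be a low count of unique reads. Over the 52 genes, a median of 55.05% of 50-base windows of the exons (6 to 100%) occurred in no other gene, and over the 10 genes never counted the median was 3.25% (0 to 76.2%). The median was 98.85% for the 6 H1 genes and 26.75% for H2A genes by name. Differences in level between genes therefore mix abundance with countability. Comparisons of 1 gene between libraries use the same gene model, and whether countability also differed between mice was not tested. Exons of 26 of the 70 genes, every H2A gene among them, overlapped another gene, and counting did not use the strand. Hist1h1e shares 496 bases with Hist1h2be, and their reads cannot be told apart there.

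**Figure D1:**
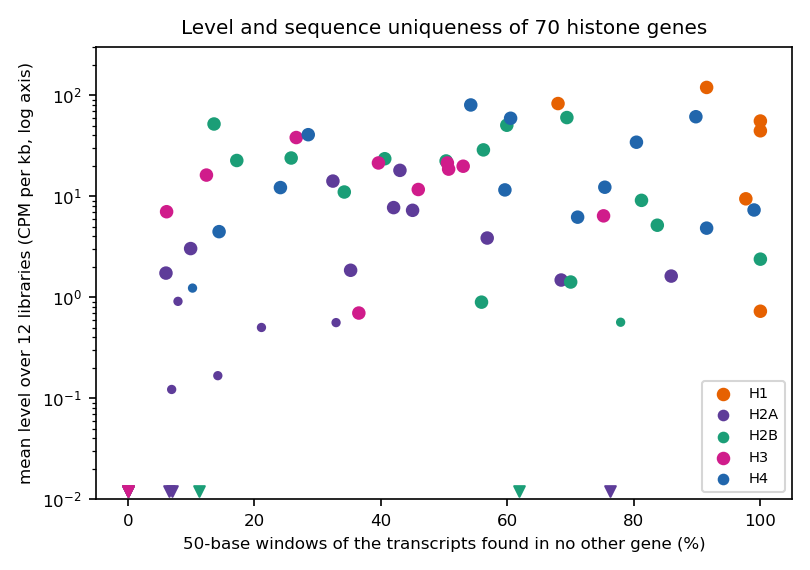
Mean CPM per kb of exon over the 12 libraries (log axis) against the percent of 50-base exon windows found in no other gene, 1 point per histone gene, by class. Triangles are the 10 genes with no count in any library, which have a median of 3.25% unique windows, and small points are genes under the minimum.

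The 52 genes summed to 1088 CPM over the 12 libraries. H1 genes held 45.1% of that sum, H2B genes 20.7%, H4 genes 20.6%, H3 genes 10.7% and H2A genes 2.93%. The Hist1 cluster on chromosome 13 held 96.2%. Levels per kb divide by the annotated exon length, and models differ in where they end. The median was 8.19 CPM per kb for 20 genes whose model runs 100 bases or more past the stem-loop. It was 21.3 for 15 genes whose model ends within 100 bases of it. The part of model length in the order below was not tested. Per kb of exon, the order of levels was Hist1h1c (119 CPM per kb over all libraries), Hist1h1e (82.6), Hist1h4h (80.0), Hist1h4d (61.2), Hist1h2bc (60.0), Hist1h4f (59.1), Hist1h1b (55.5), Hist1h2bn (51.8), Hist1h2bb (50.4) and Hist1h1a (44.4). Hist1h1c led in each group, with 133 ± 12.3 CPM per kb in EHF IKO, 114 ± 26.9 in Control-TMX and 111 ± 10.25 in Control-OIL (SD, n = 4 each). Hist1h1e followed with 86.3 ± 17.5, 79.0 ± 20.9 and 82.6 ± 9.12 CPM per kb in the same groups. It lay within 1 SD of Hist1h4h, which had 82.1 ± 19.7, 77.1 ± 38.5 and 80.8 ± 5.29. Hist1h4h exceeded Hist1h4d by less than 1 SD in EHF IKO and Control-TMX and by more in Control-OIL, where Hist1h4d had 63.5 ± 9.78. From Hist1h4d down to Hist1h1a, each gene lay within the larger SD of its neighbour in every group. The lowest levels were those of Hist2h3c2 (0.696 CPM per kb), Hist1h1t (0.725), a linker histone of the testis, and Hist1h2bp (0.892).

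No histone gene passed the test in any comparison of the 3 groups. With edgeR's quasi-likelihood test at an adjusted p of 0.05, 0 of 52 were called for EHF IKO over Control-OIL, where 1.55% of all 17503 genes tested were called. The count was also 0 of 52 for EHF IKO over Control-TMX (0.737% of all genes), for EHF IKO over the mean of both controls (1.54%) and for Control-TMX over Control-OIL (0.0743%). At an unadjusted p of 0.05 the counts were 0, 0, 0 and 1 in that order, and DESeq2 gave 0 called in each with 0, 0, 0 and 3 at that level. Over all genes, edgeR had 11.6, 11.3, 11.2 and 12% at that level. Without Control-TMX 4, still 0 of 51 genes tested were called, but 15 had an unadjusted p under 0.05 for EHF IKO over Control-TMX (smallest adjusted p = 0.084) and 23 for Control-TMX over Control-OIL (smallest adjusted p = 0.0573). The direction differed by the control used. Over Control-OIL, 16 genes were higher and 36 lower in EHF IKO, with a median log2 fold change of -0.10, against -0.01 over all genes. Over Control-TMX, 37 were higher and 15 lower, with a median of 0.18, against 0.02 over all genes. The comparisons share libraries, so they are not independent. Without EHF IKO 2 the median over Control-OIL was 0.06, and without both Control-TMX 1 and Control-TMX 2 the median over Control-TMX was -0.28. In bulk RNA, fewer cells in S phase and less histone mRNA per cell cannot be told apart.

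**Figure D2:**
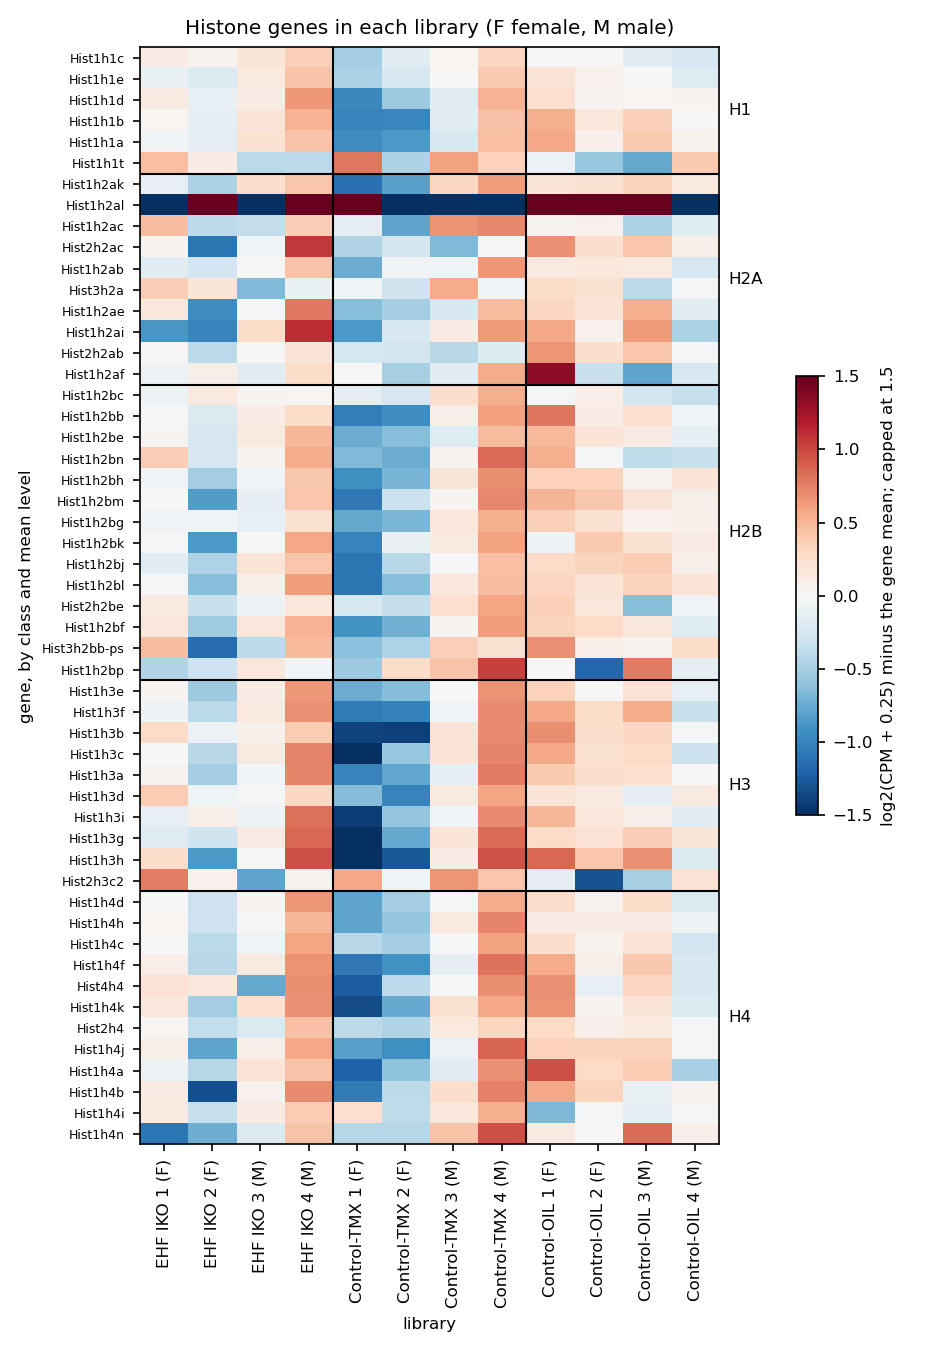
Level of each of the 52 histone genes in each library, as log2 CPM minus the gene's mean over the 12 libraries, with genes grouped by class and libraries ordered EHF IKO, Control-TMX and Control-OIL. Control-TMX 1 and 2 are low for most genes, Control-TMX 4 and EHF IKO 4 are high, and no gene passes the test between groups.

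Among H1 genes, Hist1h1c (ENSMUSG00000036181, chr13:23738808-23740367, plus strand), a linker histone with dividing-cell and polyadenylated forms, had 199, 190.3, 208 and 235 CPM in EHF IKO, 129, 165, 187 and 229 CPM in Control-TMX, and 185, 187, 164.5 and 154 CPM in Control-OIL. Every EHF IKO library lay above every Control-OIL library, and EHF IKO overlapped Control-TMX. Hist1h1c was the only one of the 52 genes without overlap between EHF IKO and Control-OIL, against 6.21% of all genes. Its log2 fold change was 0.27 ± 0.14 over Control-OIL (95% interval -0.03 to 0.57, edgeR adjusted p = 0.51) and 0.23 ± 0.14 over Control-TMX (-0.08 to 0.53, adjusted p = 0.606), so the difference did not pass the test. Hist1h1b (chr13:21779883-21780625, minus strand) had 40.0, 35.7, 44.9 and 56.1 CPM in EHF IKO, 19.6, 19.8, 35.2 and 53.2 in Control-TMX, and 56.8, 44.1, 50.3 and 39.2 in Control-OIL. Hist1h1a (chr13:23763666-23764406, plus strand) had 30.5, 28.5, 36.9 and 42.3 CPM in EHF IKO, 16.4, 17.1, 26.7 and 43.0 in Control-TMX, and 46.7, 33.1, 41.1 and 32.4 in Control-OIL. For both, Control-TMX 1 and 2 were the lowest of the 12 libraries while Control-TMX 4 lay among the highest, and the groups overlapped. Over Control-TMX, Hist1h1b and Hist1h1a had log2 fold changes of 0.45 ± 0.28 and 0.41 ± 0.26 in EHF IKO (adjusted p = 0.603 and 0.622). Between the controls, Control-TMX over Control-OIL, they were -0.56 ± 0.28 and -0.55 ± 0.26 (adjusted p = 0.457 and 0.424).

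H2A genes were counted least. The exons of every H2A gene overlapped another gene, where reads were left out, so this need not be low abundance. Hist2h2ac, on chromosome 3, had 3.58, 1.49, 3.32 and 7.55 CPM in EHF IKO, 2.47, 2.83, 2.11 and 3.46 in Control-TMX, and 5.73, 4.21, 4.71 and 3.72 in Control-OIL. Hist2h2ab, in the same Hist2 cluster, had 0.808, 0.543, 0.797 and 0.943 CPM in EHF IKO, 0.618, 0.614, 0.528 and 0.654 in Control-TMX, and 1.40, 0.996, 1.15 and 0.783 in Control-OIL. In both, every Control-TMX library lay below every Control-OIL library, which held for 2 of 52 histone genes and 6.48% of all genes. None of the 52 genes was without overlap between EHF IKO and Control-TMX, against 6.86% of all genes, or between EHF IKO and both controls, against 2.22%. The log2 fold change of Control-TMX over Control-OIL was -0.73 ± 0.35 for Hist2h2ac (adjusted p = 0.421) and -0.80 ± 0.35 for Hist2h2ab (adjusted p = 0.388). Hist2h2ab was the 1 gene with an unadjusted p under 0.05 there.

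Of the H2B genes, Hist1h2bc (chr13:23684199-23692908, plus strand), which has a polyadenylated form, had 64.7, 75.7, 70.5 and 69.95 CPM in EHF IKO, 62.1, 57.6, 82.5 and 99.5 in Control-TMX, and 67.0, 73.4, 56.0 and 53.7 in Control-OIL. The groups overlapped, and its log2 fold change was 0.17 ± 0.15 for EHF IKO over Control-OIL (adjusted p = 0.775) and 0.28 ± 0.15 for Control-TMX over Control-OIL (adjusted p = 0.493). Hist1h2bb (chr13:23746734-23747241, plus strand) had 24.0, 20.8, 26.2 and 29.3 CPM in EHF IKO, 11.6, 12.5, 25.7 and 37.2 in Control-TMX, and 42.4, 26.1, 28.5 and 23.0 in Control-OIL. Hist1h2bn had 24.1, 15.6, 19.3 and 27.5 CPM in EHF IKO, 11.74, 11.1, 19.3 and 33.7 in Control-TMX, and 27.3, 18.4, 14.3 and 14.8 in Control-OIL. In both, Control-TMX 1 and 2 were the lowest of the 12 libraries and the groups overlapped.

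Hist1h3b (chr13:23752267-23752886, plus strand), the H3 gene with the lowest p in the fit by sex, had 14.8, 11.4, 12.8 and 15.8 CPM in EHF IKO, 4.48, 4.42, 13.8 and 20.0 in Control-TMX, and 19.7, 14.6, 15.0 and 11.9 in Control-OIL. Control-TMX 1 and 2 lay below all 10 other libraries and Control-TMX 4 above all. Of the H4 genes, Hist1h4h (chr13:23531050-23531519, plus strand) had 37.1, 29.2, 36.7 and 51.4 CPM in EHF IKO, 20.9, 23.8, 40.0 and 60.3 in Control-TMX, and 39.0, 39.1, 39.6 and 34.3 in Control-OIL. Hist1h4k (chr13:21750194-21750505, minus strand) had 13.3, 8.14, 14.0 and 19.1 CPM in EHF IKO, 4.48, 6.88, 13.8 and 17.8 in Control-TMX, and 18.9, 12.1, 13.5 and 10.2 in Control-OIL. The lowest values of each were again those of Control-TMX 1 and 2. Hist1h4n, an H4 gene with few counts, had 0.693, 0.9496, 1.46 and 2.43 CPM in EHF IKO, 1.24, 1.23, 2.43 and 3.65 in Control-TMX, and 1.96, 1.77, 3.31 and 1.86 in Control-OIL. It was among the 4 genes with the most negative fold changes of EHF IKO over either control, at -0.69 ± 0.43 over Control-OIL (adjusted p = 0.606) and -0.68 ± 0.43 over Control-TMX (adjusted p = 0.600), and its groups overlapped.

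Other genes at the ends of the range of fitted changes did not pass the test either. Hist2h3c2, with 11, 5, 2 and 5 counts in EHF IKO, 7, 5, 11 and 10 in Control-TMX and 4, 1, 3 and 8 in Control-OIL, had a log2 fold change of 0.65 ± 0.54 for EHF IKO over Control-OIL (edgeR adjusted p = 0.742) and 1.01 ± 0.51 for Control-TMX over Control-OIL (adjusted p = 0.450). Hist1h2bp had -0.81 ± 0.55 for EHF IKO over Control-TMX (adjusted p = 0.635). For EHF IKO over Control-OIL, Hist1h4i had 0.29 ± 0.25 (adjusted p = 0.745) and Hist1h2bm -0.38 ± 0.32 (adjusted p = 0.743). Of 4 genes listed for polyadenylated transcripts, Hist1h1c and Hist1h2bc among them, 2 were higher and 2 lower for EHF IKO over Control-OIL, with a median of 0.08 and 0 called by edgeR or at an unadjusted p under 0.05. Their ratio of Control-TMX 4 to Control-TMX 1 had a median of 1.77. Hist1h1t, the 1 of 3 listed testis histones with enough counts, had 0.399 to 0.924 CPM in EHF IKO, 0.369 to 1.24 in Control-TMX and 0.255 to 0.881 in Control-OIL, which overlapped.

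Histone genes varied more between mice of 1 group than most genes in Control-TMX and EHF IKO, and about as much in Control-OIL. The share of all genes with an SD below the histone median was 95.7%, 71.7% and 51.3% in that order. Genes of like level were not matched for this. The median biological coefficient of variation in the fit was 28.9% for the 52 genes and 17.2% for all genes tested. Within Control-TMX the median SD of log2 CPM was 0.683 for histone genes and 0.231 for all genes. In EHF IKO these were 0.418 and 0.273, and in Control-OIL 0.254 and 0.248. The genes shared their order of libraries: Control-TMX 4 was the highest Control-TMX library for 47 of 52 (90.4%, against 29.0% of all genes), and Control-TMX 1 was the lowest for 34 and Control-TMX 2 for 16. EHF IKO 4 was the highest EHF IKO library for 45 of 52 (86.5%, against 34.5% of all genes). The ratio of Control-TMX 4 to Control-TMX 1 had a median of 2.75 over histone genes, and 37 of 52 were at least 2-fold higher in Control-TMX 4 (71.2%, against 3.53% of all genes). By class the median ratio was 3.84 for H3, 3.04 for H4, 2.88 for H2B, 2.21 for H1 and 1.65 for H2A.

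Summed over the 52 genes, levels were 1068, 919, 1113 and 1468 CPM in EHF IKO, 656, 758, 1066 and 1510 in Control-TMX, and 1291, 1132, 1124 and 947 in Control-OIL. The group means were 1142 ± 233, 997 ± 384 and 1123 ± 140.3 CPM (SD, n = 4 each), so the groups differed by less than their spread. Without TMM scaling the Control-OIL sums were 1081, 1142, 1082 and 1168 CPM, and the order within that group depends on the scaling. Genes of DNA replication, such as the sliding clamp Pcna and the helicase subunit Mcm2, were low in the same Control-TMX libraries: their sum was 579, 536, 655 and 716 CPM in EHF IKO, 371, 397, 544 and 720.1 in Control-TMX, and 845, 727, 711 and 674 in Control-OIL. Genes of mitosis, such as Top2a and Mki67, summed to 996, 995, 1231 and 1628 CPM in EHF IKO, 583, 681, 1164 and 1250.0 in Control-TMX, and 1089, 1142, 1209 and 1038 in Control-OIL. In all 3 sums Control-TMX 1 and 2 were the lowest and second lowest of the 12 libraries. Other RNAs, listed as lacking a poly(A) tail and led by Malat1 and Neat1, were highest in Control-TMX 1. The list is not pure, as a short form of Neat1 has a tail and the counts do not separate it. The listed RNAs summed to 31970, 31570, 25680 and 15340 CPM in EHF IKO, 38030, 28600, 23320 and 20100 in Control-TMX, and 19320, 24730, 22710 and 27920 in Control-OIL. The sources used here do not say whether RNA with a poly(A) tail was selected.

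**Figure D3:**
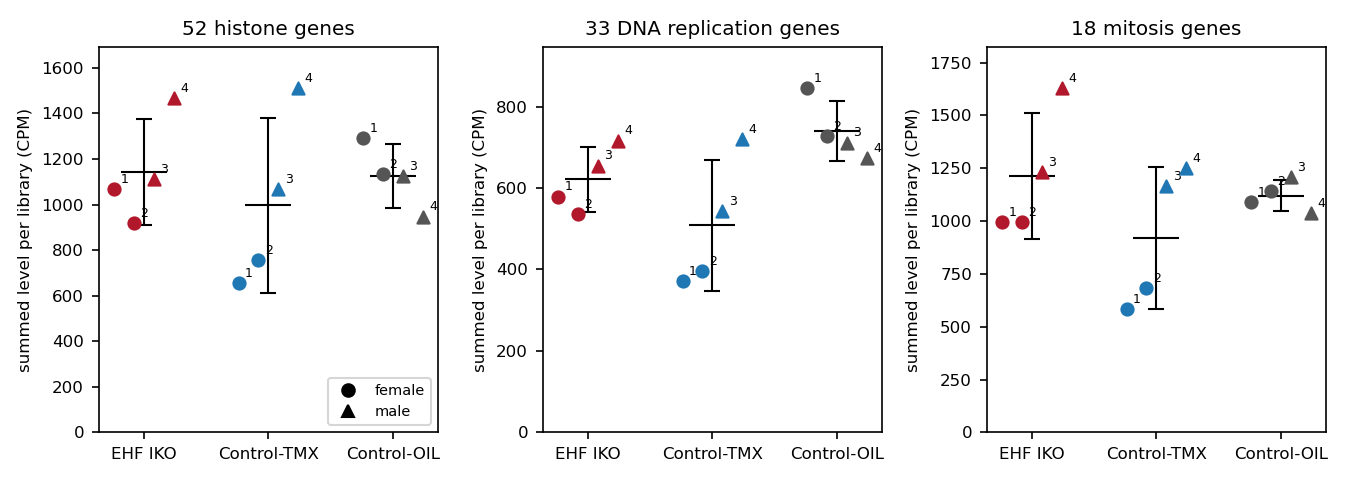
Summed CPM per library of the 52 histone genes, of 33 DNA replication genes and of 18 mitosis genes, for EHF IKO, Control-TMX and Control-OIL, with marker shapes for female and male mice and bars for the mean ± SD of 4. The 2 Control-TMX females are the lowest points for each set, at 656 and 758 CPM for histones.

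Because replicates 1 and 2 were female and 3 and 4 male, a second fit gave each group a mean per sex, with 2 mice in each. This fit was chosen after the data were seen. Between the controls it separated the sexes: in females, 23 of 52 histone genes fell in Control-TMX over Control-OIL (edgeR adjusted p under 0.05), where 4.99% of all genes fell and 7.9% were called. The 23 were 3 of 6 H1, 1 of 10 H2A, 7 of 14 H2B, 8 of 10 H3 and 4 of 12 H4 genes. In all, 48 of 52 were lower, with a median log2 fold change of -1.03. In males, 1 gene rose (1.46% of all genes were called), 46 of 52 were higher and the median was 0.325. The difference between the sexes itself, females minus males, passed the test for 16 genes, all of them negative (3.97% of all genes were called and 2.57% were negative), and 13 of those were among the 23. The median difference was -1.32 over the 52 genes and -1.34 without Hist1h2al, which had no count in either Control-TMX male.

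With 2 mice per group and sex, single libraries carried much of this count. In females, 3 genes were called without Control-TMX 1, 6 without Control-TMX 2, 3 without Control-OIL 1 and 8 with library totals in place of TMM scaling. For the difference between the sexes the counts were 2 without Control-TMX 1, 3 without Control-TMX 2, 2 without Control-TMX 4, 4 without Control-OIL 1 and 5 without Control-OIL 4. Counts over all genes fell in each of these settings too, so the loss was not particular to histone genes. With library totals, 230 of all 17503 genes were called in females, against 1382 with TMM scaling. The direction of the histone genes in females did not depend on a library. Over 19 alternatives, which tested 46 to 52 of them, 45 to 50 were lower in Control-TMX females, with medians between -1.18 and -0.89. In males it did: 6 of 52 were lower with all libraries and 28 without Control-TMX 4, when the median was -0.01. Sex cannot be told apart here from any batch that the replicate numbers may stand for.

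Hist1h3b had the lowest p for this difference. It fell by 1.94 ± 0.26 on the log2 scale in Control-TMX females over Control-OIL females (edgeR adjusted p = 0.000657), with 4.48 and 4.42 CPM against 19.7 and 14.6 CPM. In males its log2 fold change was 0.34 ± 0.22 (adjusted p = 0.607), with 13.8 and 20.0 against 15.0 and 11.9 CPM. The difference, females minus males, was -2.28 ± 0.34 (adjusted p = 0.00184). In females, the log2 fold change was -1.35 ± 0.21 for Hist1h1b (adjusted p = 0.00225), -1.49 ± 0.24 for Hist1h2bb (0.00291), -1.25 ± 0.23 for Hist1h1a (0.00594), -1.41 ± 0.31 for Hist1h4k (0.0156) and -0.80 ± 0.21 for Hist1h4h (0.0320). The calls of Hist1h3b, Hist1h1b and Hist1h2bb in females held in all 19 alternatives. Those of Hist1h1a, Hist1h4k and Hist1h4h were lost without Control-TMX 1, Control-TMX 2 or Control-OIL 1. Hist1h4h also lost its call in other alternatives, 6 of 19 in all. Differences between the sexes were -1.34 ± 0.28 for Hist1h1b (adjusted p = 0.0177), -1.79 ± 0.32 for Hist1h2bb (0.00736), -1.18 ± 0.31 for Hist1h1a (0.0474), -1.84 ± 0.42 for Hist1h4k (0.0274) and -1.25 ± 0.29 for Hist1h4h (0.0273). Of these 6 genes only the difference of Hist1h3b held in all 19 alternatives.

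Hist1h2bc was the gene called in males. It rose by 0.73 ± 0.13 on the log2 scale in Control-TMX males over Control-OIL males (edgeR adjusted p = 0.00756), with 82.5 and 99.5 CPM against 56.0 and 53.7 CPM. In females its log2 fold change was -0.23 ± 0.13 (adjusted p = 0.288), with 62.1 and 57.6 against 67.0 and 73.4 CPM. The difference was -0.96 ± 0.18 (adjusted p = 0.00774). The call in males was lost without Control-TMX 4, without Control-OIL 4 and with library totals alone, where the values were 0.59, 0.70 and 0.69.

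**Figure D4:**
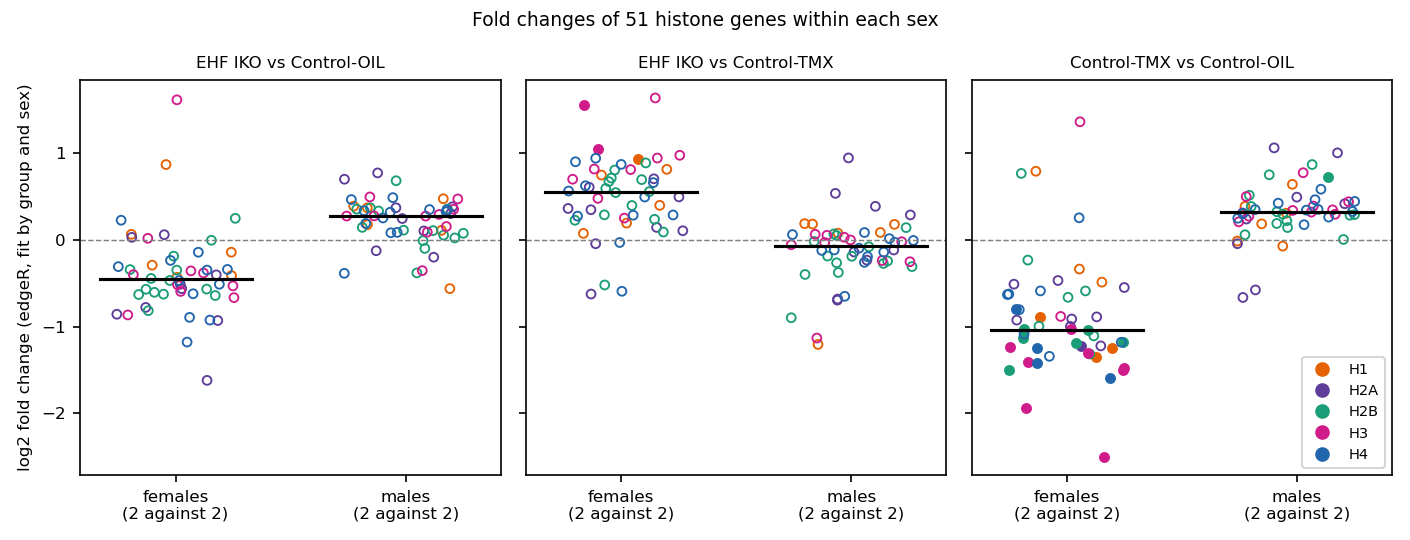
Log2 fold changes of 51 histone genes (Hist1h2al left out) within females and within males for EHF IKO over Control-TMX, EHF IKO over Control-OIL and Control-TMX over Control-OIL, with filled points at an adjusted p under 0.05 and a line at the median of all 52. The Control-TMX over Control-OIL points of females lie mostly below 0 and those of males mostly above it, with 23 and 1 filled.

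The comparison of EHF IKO with Control-TMX shares the Control-TMX mice with the one above. In females, 3 of 52 genes rose in EHF IKO (4.27% of all genes were called), 47 were higher and the median log2 fold change was 0.55. The 3 were Hist1h3b at 1.56 ± 0.27 (edgeR adjusted p = 0.00406), Hist1h1b at 0.94 ± 0.21 (0.0201) and Hist1h3d at 1.05 ± 0.27 (0.0390). The count was 0 without Control-TMX 1, 0 without Control-TMX 2, and 1 without EHF IKO 1 or EHF IKO 2. In males 0 were called by edgeR (0.48% of all genes) and by DESeq2, 2 had an unadjusted p under 0.05, 20 of 52 were higher and the median was -0.07, against 0.27 without Control-TMX 4. The difference between the sexes was called for 0 of 52 genes by edgeR (0.0628% of all genes) and for 1 by DESeq2, with 12 at an unadjusted p under 0.05 in edgeR. For EHF IKO over Control-OIL, edgeR called 0 of 52 in females (3.17% of all genes), where 44 were lower with a median of -0.45. It called 0 of 52 in males (2.38% of all genes), where 43 were higher with a median of 0.28. That median was 0.04 with library totals alone, 0.10 without Control-OIL 4, and -0.03 without EHF IKO 4, when 30 were lower. The difference between the sexes was called for 0 of 52 by edgeR (0.286% of all genes). DESeq2 also called 0 in each of these, and the counts at an unadjusted p under 0.05 in edgeR were 10, 4 and 11 in that order.

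Within single groups, females against males, 13 of 52 histone genes fell in Control-TMX (edgeR adjusted p under 0.05, 1.07% of all genes fell and 1.53% were called), 50 were lower in females and the median log2 fold change was -1.11. The count was 1 without Control-TMX 1, 4 without Control-TMX 2 and 1 without Control-TMX 4. In EHF IKO 0 were called by edgeR (0.0686% of all genes) and by DESeq2, 10 had an unadjusted p under 0.05, 46 were lower in females and the median was -0.47. In Control-OIL 0 were called by edgeR (0.857% of all genes) and by DESeq2, 1 had an unadjusted p under 0.05, 44 were higher in females and the median was 0.22, but with library totals alone 30 were lower and the median was -0.02. Summed levels were 656 and 758 CPM in Control-TMX females against 1066 and 1510 CPM in Control-TMX males. They were 919 and 1068 against 1113 and 1468 CPM in EHF IKO, and 1291 and 1132 against 1124 and 947 CPM in Control-OIL. The sexes did not overlap in any group, with females lower in Control-TMX and EHF IKO and higher in Control-OIL. With 2 mice a side, such a separation says little. Without TMM scaling the sexes overlapped in EHF IKO and Control-OIL and not in Control-TMX.

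Other genes of S phase and mitosis shared the split in the controls. In females, where 4.99% of all genes fell, 22 of 33 DNA replication genes fell in Control-TMX over Control-OIL (median log2 fold change -1.09), as did 11 of 18 mitosis genes (median -0.77) and 9 of 13 histone chaperones, which hand histones to DNA (median -0.72). Of 20 genes that process and regulate histone mRNA 3′ ends 4 fell (median -0.40), and of 11 replication-independent histones, which are made outside S phase too, 2 fell (median -0.38). For females minus males, where 3.97% of all genes were called, 12 DNA replication genes, 9 mitosis genes and 1 replication-independent histone gene were called, and 0 of 13 chaperones and 0 of 20 processing genes. These counts rested on single libraries too. In females, DNA replication genes that fell were 11 without Control-TMX 1, 13 without Control-TMX 2 and 10 without Control-OIL 1, mitosis genes 4, 8 and 6, and chaperones 1, 1 and 0, in that order. In each of these, all 33 DNA replication genes were lower. For the difference, DNA replication genes called were 5 without Control-TMX 1, Control-TMX 2 or Control-OIL 1, 4 without Control-TMX 4 and 7 without Control-OIL 4, and 1 with library totals alone. With all 4 mice of each control, Control-TMX over Control-OIL, edgeR called 0 genes of these 3 lists (0.0743% of all genes). There 33 of 33 DNA replication genes, 16 of 18 mitosis genes and 11 of 13 chaperones were lower, against 8923 of 17503 genes. An unadjusted p under 0.05 was found for 22, 1 and 7 of them, against 12% of all genes. Top2a, which untangles chromosomes, had 78.03 and 81.4 CPM in Control-TMX females and 208 and 207.5 in Control-OIL females, against 171 and 213 in Control-TMX males and 213.5 and 192 in Control-OIL males. Slbp had 24.7 and 22.9 CPM in Control-TMX females, 34.4 and 27.2 in Control-OIL females, 28.7 and 28.2 in Control-TMX males, and 28.6 and 25.4 in Control-OIL males. Npat, which turns on histone transcription in S phase, had 18.7 and 13.4 CPM in Control-TMX females and 30.9 and 23.6 in Control-OIL females. Beside these, the RNAs listed as lacking a poly(A) tail summed to 38030 and 28600 CPM in Control-TMX females and 19320 and 24730 in Control-OIL females. In males they summed to 23320 and 20100 CPM in Control-TMX and 22710 and 27920 in Control-OIL. Markers of stem and transit-amplifying cells (8 genes) summed to 271 and 285 CPM in Control-TMX females and 368 and 311 in Control-OIL females, against 252 and 332 in Control-TMX males and 365 and 303 in Control-OIL males. Their part in the histone values was not tested.

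In the comparison of all 4 mice, EHF IKO over Control-OIL, 1 of 20 histone mRNA processing genes was called, none of the 13 chaperones, 33 DNA replication genes, 18 mitosis genes or 11 replication-independent histones, against 1.55% of all genes. At an unadjusted p under 0.05 the last 4 counts were 0, 2, 1 and 0 in edgeR, against 11.6% of all genes. By direction, 13 of 13 chaperones, 29 of 33 DNA replication genes, 3 of 18 mitosis genes and 5 of 11 replication-independent histones were lower in EHF IKO. Of all 17503 genes, 8957 were lower. Ncbp1, a subunit of the nuclear cap-binding complex, fell by 0.49 ± 0.11 on the log2 scale (edgeR adjusted p = 0.0288), with 21.9, 24.8, 25.1 and 27.8 CPM in EHF IKO and 37.1, 33.98, 35.0 and 33.9 in Control-OIL, which did not overlap. Cdca7, a marker on the list for stem and transit-amplifying cells, fell by 0.74 ± 0.16 (adjusted p = 0.0265), the only one of 8 on it. Both calls depended on the processing, and over 23 alternatives the adjusted p of Ncbp1 was between 0.00286 and 0.158 and that of Cdca7 between 0.000185 and 0.104. Krt20, a keratin of differentiated surface cells and the 1 called of 11 colonic epithelium markers, rose by 0.70 ± 0.16 (adjusted p = 0.0428), a call lost in 17 of 23 alternatives. Markers of other cells moved with the groups as well. Summed stroma and vessel markers (11 genes, 10 of them tested and 1 called) were 412 to 983 CPM in EHF IKO, 463 to 717 in Control-TMX and 295 to 388 in Control-OIL, and Col3a1, a fibroblast collagen, rose by 1.04 ± 0.23 in EHF IKO over Control-OIL (adjusted p = 0.0372), a call lost in 11 of 23 alternatives. Leukocyte markers (12 genes, 8 tested) summed to 30.2 to 66.9 CPM and germinal-centre B-cell markers (7 genes, 5 tested) to 15.2 to 21.98 CPM over all libraries, with none called, and colonic epithelium markers to 18300 to 33600 CPM. Over Control-TMX, Ncbp1, Cdca7, Krt20 and Col3a1 had log2 fold changes of -0.24, -0.18, 0.26 and 0.32 in EHF IKO (edgeR adjusted p = 0.4175, 0.735, 0.6045 and 0.654). For Control-TMX over Control-OIL they had -0.25, -0.56, 0.44 and 0.72 (adjusted p = 0.356, 0.191, 0.319 and 0.266). None was called in those comparisons. The part of the stroma markers in the histone values was not tested either.

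Hist1h2al, annotated as an H2A processed pseudogene and lying apart from the main cluster (ENSMUSG00000091383, chr13:51202727-51203065, minus strand), was counted in an all-or-none way and is singled out after its values were seen. It had 0, 64, 0 and 73 counts in EHF IKO, 46, 0, 0 and 0 in Control-TMX, and 88, 79, 84 and 0 in Control-OIL. A count of 0 allows up to 0.28 to 0.399 CPM (3 counts), and the libraries with the gene ranged from 46 to 88 counts. The pattern followed neither group nor sex, and no other of the 55304 rows had at least 5 counts in exactly these 6 libraries and 0 in the others. Its nearest counted neighbours did not share it: Spin1 had 36.3 to 45.3 CPM where Hist1h2al was counted and 32.4 to 41.7 where it was not, and Cks2 had 6.95 to 14.6 and 5.16 to 13.4 CPM. No fold change is given for this gene.

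Hist1h4m, under the minimum and singled out in the same way, had 8, 12, 4 and 5 counts in EHF IKO, 0 in all 4 Control-TMX libraries, and 10, 7, 0 and 0 in Control-OIL. EHF IKO did not overlap Control-TMX, as held for 6.86% of all genes tested, and its values overlapped those of Control-OIL. Only 10.2% of its 50-base windows occurred in no other gene, so a count of 0 can be a lack of unique reads. Whether that differed between the mice was not tested. No other row had at least 4 counts in exactly these 6 libraries and 0 in the others. With a mean of 3.83 counts it entered no test.

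**Figure D5:**
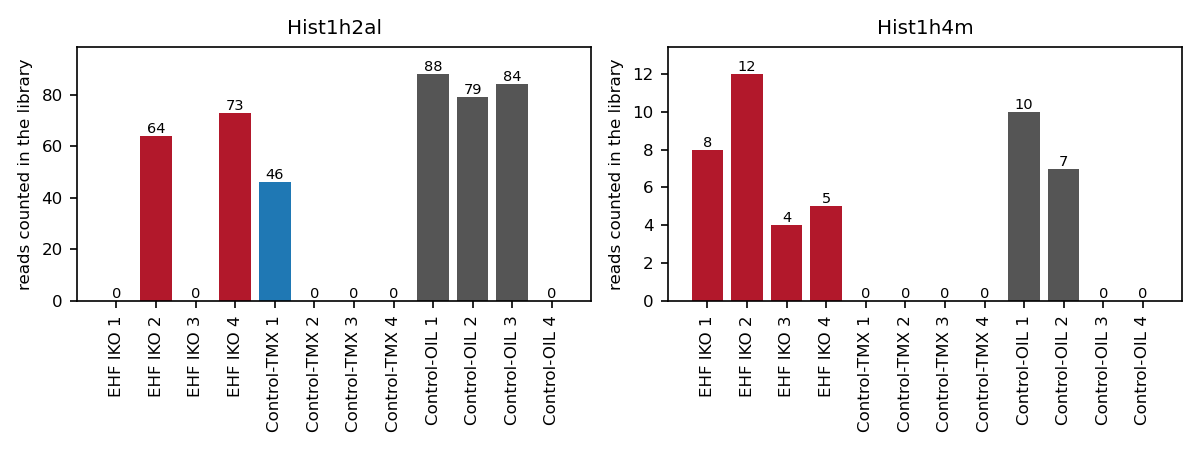
Raw counts of Hist1h2al and Hist1h4m in each library of EHF IKO, Control-TMX and Control-OIL. Hist1h2al is at 46 to 88 counts in 6 libraries and at 0 in the other 6, and Hist1h4m is at 0 in all Control-TMX libraries.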

How the data were processed

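Libraries of total RNA from EDTA-released colonic epithelium were sequenced, 1 per mouse and 4 per group. The authors deposited a table of raw read counts per gene for each library. Per the file headers, these counts were made with featureCounts (Subread 1.6.1) on Ensembl release 98 annotation, by exon and gene name, without strand, and with multi-mapping and multi-gene reads left out. The submitters' processing notes name the aligner STAR, for which no version was found in those sources. The chromosome names and build are those of GRCm38.

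Genes with a mean of at least 5 counts over the 12 libraries (17503) entered the quasi-likelihood test of edgeR 4.0.16, run under R 4.3.3 (TMM factors, 1 fit of all libraries with 9 residual degrees of freedom, Benjamini-Hochberg over all genes, called at an adjusted p under 0.05). A fit with a mean per group and sex was added after the data were seen. DESeq2 1.42.0 and voom in limma 3.58.1, other scalings and filters, a replicate block and leaving out single libraries were alternatives. The scripts were tested on simulated counts. There edgeR recovered 77% of genes changed 2-fold for EHF IKO over Control-OIL, with 12 false calls, and 73% over Control-TMX, with 9. The changed genes were drawn from all genes but those with the lowest levels. Histone genes had a larger median coefficient of variation (28.9%, against 17.2% for all genes), so these shares are not the power for them. No label says how mice relate, so p-values measure the spread between these libraries.

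Histone genes and gene lists were chosen with earlier results of these data known. Genes are named as follows: the 10 with the highest CPM per kb, the 4 largest fold changes each way, those around the minimum, and called or defining genes of the lists. Genes called in the fit by sex were added after their values were seen, and not every gene the rule allows is described.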

Additional observations from a re-analysis of the deposited data

Results flagged for a closer look

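In groups of 4 libraries, 1 library stood far from the 3 others for 4 of 84 sets of values examined, and chance gives about 1 in 20. Hist1h4h was 34.3 CPM in Control-OIL 4, against 39.0 to 39.6 CPM in the other Control-OIL libraries. Hist1h2al was 7.11 CPM in Control-TMX 1 and 0 in the other Control-TMX libraries. Hist1h4n was 3.31 CPM in Control-OIL 3, against 1.77 to 1.96 CPM in the others. The H2A genes summed to 48.0 CPM in EHF IKO 4, against 24.98 to 27 CPM in the other EHF IKO libraries. This sum includes Hist1h2al, which was counted in EHF IKO 4 but had 0 counts in EHF IKO 1 and EHF IKO 3. Where counted, that gene had 7.11 to 12.3 CPM over all libraries, and a sum without it was not examined.

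Hist1h4m, below the minimum for the tests, had 29 counts summed over EHF IKO and 0 in Control-TMX. Some Control-OIL libraries had counts and others had 0, and few of its windows are found in no other gene.

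The comparison of Control-TMX with Control-OIL differed between females and males for 16 of 52 histone genes. The difference itself was tested in edgeR, with 2 mice per group and sex. Of all genes, 3.97% were called and 2.57% were called and negative. The fit by sex was chosen after the data were seen, and its count of calls rested on single libraries. Sex cannot be told apart here from anything else the replicate numbers may carry. The log2 differences, females minus males, were -2.28 for Hist1h3b, -1.87 for Hist1h2bn, -1.84 for Hist1h4k, -1.79 for Hist1h2bb, -1.42 for Hist1h3d, -1.34 for Hist1h1b, -1.25 for Hist1h4h, -1.18 for Hist1h1a, -0.96 for Hist1h2bc and -0.80 for Hist1h1e. For 9 of these 10, Hist1h3b being the exception, the call was lost in at least 1 alternative.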

How the results depend on the processing

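Over the comparisons of whole groups, no histone gene was called in any of the 23 alternatives, which tested 46 to 52 of them (the mean of both controls has no fit of only the groups compared). The median log2 fold change, leaving out 1 library at a time, was -0.26 to 0.06 for EHF IKO over Control-OIL, -0.05 to 0.49 over Control-TMX, -0.15 to 0.19 over both controls and -0.62 to -0.06 for Control-TMX over Control-OIL. Without both Control-TMX 1 and Control-TMX 2, chosen after the data were seen, EHF IKO over Control-TMX had a median of -0.28, and Hist1h1c, Hist1h1b and Hist1h1a turned to -0.0032, -0.0036 and -0.016.

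In the fit by sex the counts moved with the settings, and the cause was not tested. With no filter on low counts, histone genes called were 5 in females, 2 in males and 11 for the difference in EHF IKO over Control-OIL. Of all genes, 1743, 950 and 1374 of 41205 were then called, against 554, 417 and 50 of 17503 in the main fit. Histone genes called with no filter were 10 in females and 2 for the difference in EHF IKO over Control-TMX. They were 2 in males and 34 for the difference in Control-TMX over Control-OIL, and 7 in EHF IKO and 35 in Control-TMX for females over males. All genes called were 1474, 374, 660, 1284, 1267 and 703 in that order, against 748, 11, 256, 695, 12 and 268 in the main fit. DESeq2 gave 5 in females and 1 for the difference in EHF IKO over Control-TMX, 27 for the difference in Control-TMX over Control-OIL and 27 for females over males in Control-TMX. Library totals alone gave 1 histone gene for the difference in EHF IKO over Control-TMX. For Control-TMX over Control-OIL they gave 8 in females, 0 in males and 4 for the difference, and for females over males in Control-TMX 20. With library totals, all genes called were 9, 230, 99, 144 and 165 in that order. The main fit called 11, 1382, 256, 695 and 268. With voom, 1070 of all genes were called in females of Control-TMX over Control-OIL and 175 for females over males in Control-TMX. In the main fit these were 1382 and 268. Of the histone genes, voom called 14 and 8 in that order. Leaving out 1 library gave 0 to 1 in females, 0 in males and 0 to 1 for the difference in EHF IKO over Control-OIL. It gave 0 to 6, 0 and 0 to 1 in EHF IKO over Control-TMX, and 3 to 28, 0 to 1 and 2 to 28 in Control-TMX over Control-OIL. Females over males gave 0 to 3 in EHF IKO, 1 to 24 in Control-TMX and 0 in Control-OIL. A group and sex left with 1 mouse was assumed to vary like the others.

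Same-numbered libraries did not deviate together in every pair, so the numbers were not taken as pairs: correlations of deviations were -0.37 to 0.152 for EHF IKO and Control-OIL, 0.077 to 0.351 (all 4 positive, but not each library closest to its own number) for EHF IKO and Control-TMX, and -0.26 to 0.049 for Control-TMX and Control-OIL. With the replicate block, 0 of 52 histone genes were called in each comparison, with medians of -0.15 for EHF IKO over Control-OIL, 0.21 over Control-TMX, 0.03 over both controls and -0.36 for Control-TMX over Control-OIL. Counts over all genes were 272, 129, 270 and 13 in these 4 comparisons, 172, 76, 149 and 23 with the block, 123, 69, 128 and 5 with library totals, 518, 298, 459 and 196 with DESeq2, 217, 98, 220 and 6 with voom, and 315, 167, 271 and 39 with sex as a covariate.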
